A study of Mus musculus with 12 samples.

Results

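The 10 genes described here make, move or regulate bile acids in the hepatocyte: the synthesis enzymes Cyp7a1, Cyp7b1, Cyp8b1 and Cyp27a1, the transporters Slc10a1, Abcb11, Abcb4, Abcc2 and Abcc3, and the nuclear receptor Nr0b2. They were taken by name from the 18193 genes measured, through the probe sets annotated to one of these symbols alone, and all 10 were found, on 15 probe sets. Each gene was followed through its brightest probe set, which for 6 genes was the only one. Values are array intensities after every array was rescaled to the same trimmed mean, and the level of one gene cannot be set against that of another, since probe sets differ in brightness.

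The 12 Affymetrix mouse arrays held RNA of primary hepatocytes, with 3 arrays in each of 4 groups and, per the design text, 1 array per mouse. The human AHR cells came from B6.Cg-Ahrtm3.1Bra mice with the transgenes Tg (Alb-cre, Ttr-AHR)1Ghp, in which a floxed mouse Ahr gene, Alb-cre and human AHR under the Ttr promoter are combined, promoters that in liver are active chiefly in hepatocytes. The wild type cells came from C57BL6/J mice, which carry their own receptor. All cells spent 48 h in medium with 2.5% DMSO and 10 nM dexamethasone, and then received 10 nM TCDD or DMSO as vehicle for 6 h. The labels used here give no age or sex of the mice. AHR, the aryl hydrocarbon receptor, is a transcription factor switched on by ligands such as the dioxin TCDD, and the arrays ask which transcripts respond through the human and the mouse form.

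Bile acids are made from cholesterol along a classical route that Cyp7a1 opens, with Cyp8b1 setting the share of cholic acid, and along an alternative route through Cyp27a1 and Cyp7b1. Hepatocytes take conjugated bile acids back from blood through Slc10a1 and pump them into bile through Abcb11, while Abcb4 brings phosphatidylcholine to bile, Abcc2 exports organic anions to bile and Abcc3 exports them to blood. Nr0b2, also called SHP, is induced by the bile acid receptor FXR and dampens Cyp7a1 and Cyp8b1.

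The promoter windows of 3 of these genes are shown because they hold the 5-letter core that AHR and its partner bind, GCGTG, searched on both strands. Each runs from 250 bases before to 50 bases after the start site, 5′ to 3′ on the gene's strand, as given by RefSeq for GRCm38.p6. Capitals mark GCGTG and the nuclear receptor half-site AGGTCA, each written as CACGC or TGACCT where it lies on the opposite strand. The Abcb11 window is chr2:69342567-69342866 on the minus strand, the Abcb4 window is chr5:8893471-8893770 on the plus strand and the Nr0b2 window is chr4:133553126-133553425 on the plus strand.
Abcb11: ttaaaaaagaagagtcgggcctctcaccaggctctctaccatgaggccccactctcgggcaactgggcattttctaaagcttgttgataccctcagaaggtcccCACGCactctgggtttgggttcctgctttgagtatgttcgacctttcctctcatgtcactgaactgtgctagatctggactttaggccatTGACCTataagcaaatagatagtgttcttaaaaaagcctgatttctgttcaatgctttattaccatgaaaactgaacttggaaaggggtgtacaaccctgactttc
Abcb4: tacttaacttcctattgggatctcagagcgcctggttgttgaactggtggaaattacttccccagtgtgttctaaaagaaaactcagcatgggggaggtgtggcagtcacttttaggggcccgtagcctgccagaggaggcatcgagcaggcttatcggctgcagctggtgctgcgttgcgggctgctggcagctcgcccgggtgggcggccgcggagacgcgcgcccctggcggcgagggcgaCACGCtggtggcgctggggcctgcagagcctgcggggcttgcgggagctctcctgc
Nr0b2: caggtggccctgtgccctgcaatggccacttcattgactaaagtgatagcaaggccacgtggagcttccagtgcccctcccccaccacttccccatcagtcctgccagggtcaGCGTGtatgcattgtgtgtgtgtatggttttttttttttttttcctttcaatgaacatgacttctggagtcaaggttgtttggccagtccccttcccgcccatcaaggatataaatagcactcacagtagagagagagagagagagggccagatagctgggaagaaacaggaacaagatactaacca

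The core lay at -146 to -142 from the start site of Abcb11, at -6 to -2 from that of Abcb4 and at -137 to -133 from that of Nr0b2. It was present in 3 of the 7 genes with a window in the table, and in 32.4% of all 32851 mouse windows of this length. AGGTCA was present in Abcb11 at -56 to -51, in Abcc2 at -49 to -44 and in 1 of the 2 Slc10a1 windows at -87 to -82, and in 16.3% of all windows. The windows of Cyp8b1 and Cyp27a1 held neither motif. Cyp7a1, Cyp7b1 and Abcc3 were not in the promoter table. These are matches of letters and not measured binding sites.

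Before the genes themselves, a few facts about the arrays bear on their values. The mouse Ahr probe set read 193 to 236 on the human AHR arrays and 223 to 617 on the wild type arrays, with 442 and 617 on wild type replicate 2 and at most 261 on the others, and whether it lies in the deleted part was not checked here, so it does not check the labels. Tiparp, a direct AHR target that encodes an ADP-ribosyltransferase, rose with TCDD in human AHR cells by 1.37 in log2 units (limma, adjusted p = 0.00539) and by 1.30 in wild type cells (adjusted p = 0.0193). Cyp1a1, the classical AHR target, stood at 4004 to 6939 under TCDD and 60.5 to 81.9 under DMSO in human AHR cells (6.09 on the log2 scale, adjusted p = 0.0427), and at 125, 2518 and 64.9 under TCDD and 18.5 to 25.3 under DMSO in wild type cells, a difference of 3.00 that did not pass the test (adjusted p = 0.966). Cyp1a2, another AHR target, gave 0.11 (-0.47 to 0.69, adjusted p = 1.0) with TCDD in human AHR cells and 0.87 (0.29 to 1.45, adjusted p = 0.966) in wild type cells. Its signal was 2848 to 3426 under TCDD and 2572 to 3352 under DMSO in human AHR cells. In wild type cells it was 753 to 1799 under TCDD and 429 to 734 under DMSO. Under DMSO Cyp1a2 was thus higher in human AHR than in wild type cells, by 2.32 (1.74 to 2.91, limma, adjusted p = 0.0085). Replicate 2 of both wild type groups stood apart, with Xist, the transcript of the inactive X chromosome, at 2952 under TCDD and 3085 under DMSO, against at most 29.3 on the other 10 arrays. The Y-linked Kdm5d, at 0.57 and 1.7 on these arrays, was at 37.9 or more on all others. These arrays thus had a female transcript pattern and all others a male one, and sex, animal and replicate number cannot be told apart in wild type cells. Values that depend on this pair are given without it too. As deposited, the 3 wild type TCDD arrays had a trimmed mean of 500 against 150 on the other 9, so in wild type cells treatment and the deposited scaling coincide, and rescaling removed a 3.333-fold offset. The summed signal of 5 measured hepatocyte markers ranged from 36901 to 49771, that of 6 Kupffer cell or macrophage markers from 1803 to 4127, most of it Cd68, and that of 6 cholangiocyte markers from 540 to 1373, with Cftr below the array median throughout.

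**Figure D1:**
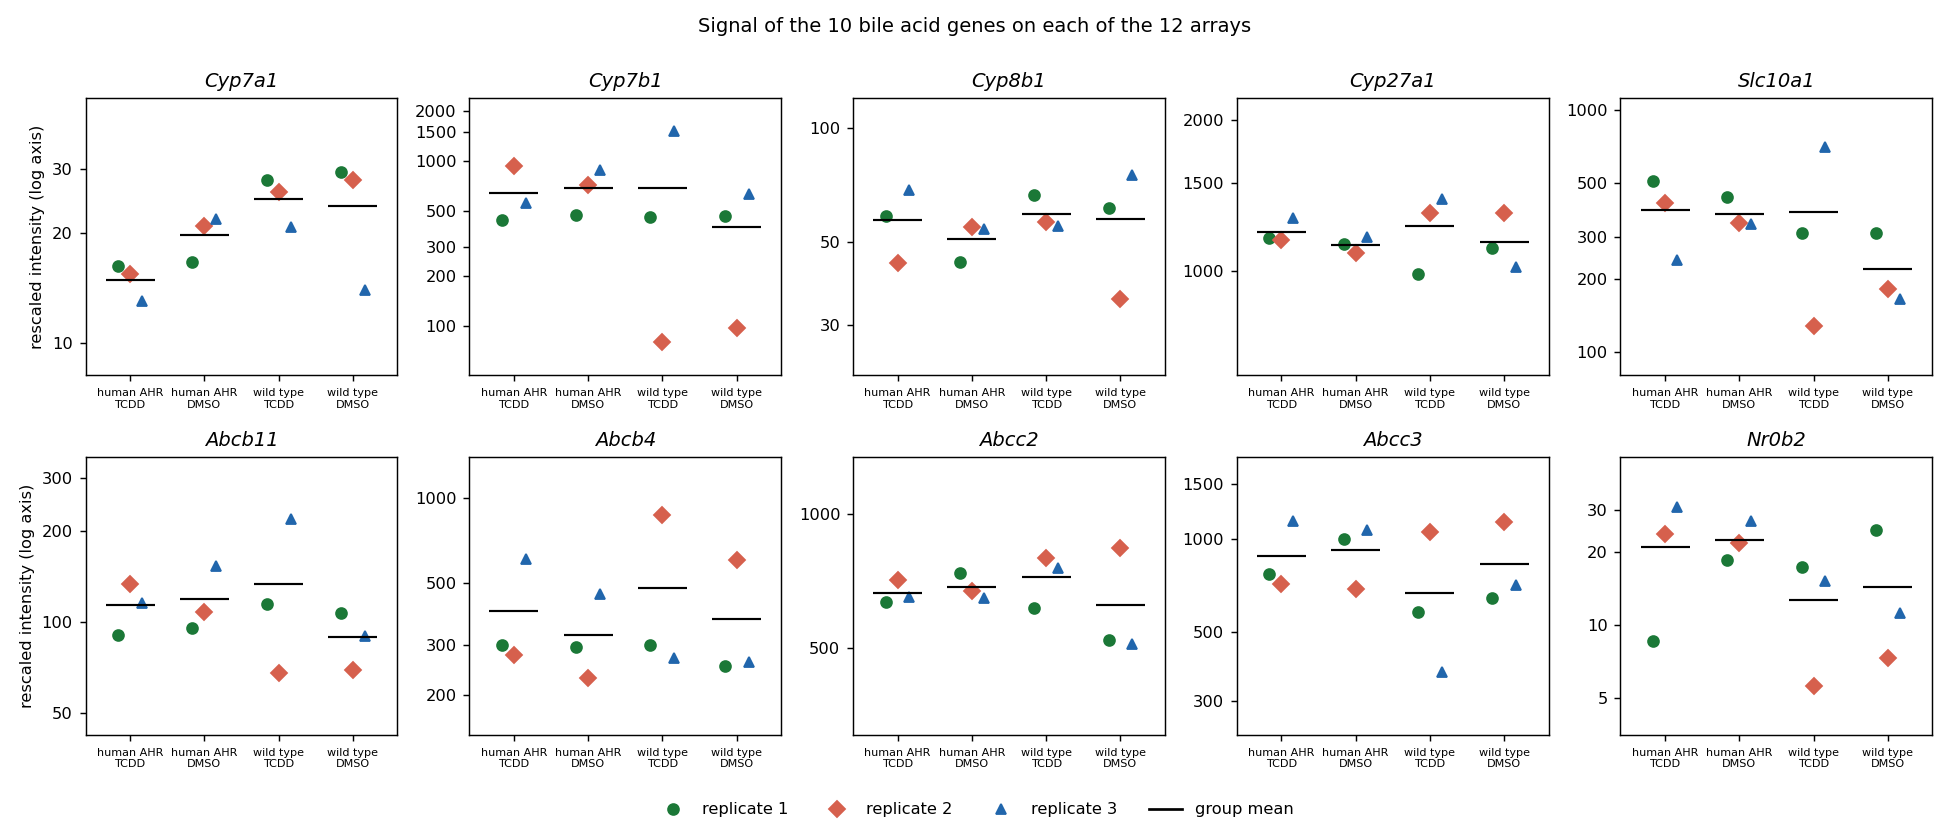
Rescaled intensity (log axis) of each of the 10 genes on every array, by group, with the replicate number as symbol and the arithmetic group mean as a bar. For Cyp7b1 the wild type replicate 2 arrays sit at 80.2 and 97.6, far below the 437 to 1513 of the other 10 arrays, and the TCDD and DMSO groups of a genotype overlap for all genes except Cyp7a1 in human AHR cells.

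Cyp7a1, the rate-limiting enzyme of the classical route, was dim in these cultures. Its signal was 16.2, 15.4 and 13.0 in human AHR cells under TCDD and 16.7, 20.9 and 21.9 in human AHR cells under DMSO. The wild type signal was 28.1, 25.9 and 20.8 under TCDD and 29.5, 28.0 and 14.0 under DMSO. Every human AHR TCDD array thus lay below every human AHR DMSO array and below every wild type TCDD array, while the wild type treatment groups overlapped. It lay below the median of all probe sets on 6 of the 12 arrays, including each human AHR TCDD array. The log2 change with TCDD in human AHR cells was -0.21 (SE 0.21, 95% interval -0.66 to 0.23, limma, adjusted p = 1.0), and under TCDD the human AHR cells differed from wild type cells by -0.41 (-0.85 to 0.04, adjusted p = 1.0). Neither difference passed the test, and log2 values here are of the intensity plus 16, which understates changes of dim genes. With an offset of 1 in place of 16 the TCDD value in human AHR cells was -0.39. The other Cyp7a1 probe set was dimmer still, with 6.0, 14.0 and 1.5 under TCDD and 1.9, 1.3 and 1.2 under DMSO in human AHR cells. It gave 15.5, 16.7 and 3.9 under TCDD and 6.7, 0.4 and 4.2 under DMSO in wild type cells. Its TCDD values had the opposite sign to the main probe set in human AHR cells, at 0.37 (-0.11 to 0.86, adjusted p = 1.0), so the probe sets disagree on the direction, and their mean gave 0.08. As these are bulk cultures, fewer cells expressing a gene and less of its RNA per cell cannot be told apart.

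Cyp7b1, the oxysterol 7-alpha-hydroxylase of the alternative route, varied most of the 10 genes, with the highest array 18.9-fold above the lowest. It read 437, 932 and 559 in human AHR cells under TCDD and 470, 713 and 877 in human AHR cells under DMSO. The wild type arrays read 457, 80.2 and 1513 under TCDD and 461, 97.6 and 628 under DMSO. The low pair is replicate 2 of both treatments, the Xist-high arrays, and the highest value of all is wild type TCDD replicate 3. In mouse liver Cyp7b1 is known to be more abundant in males than in females, and the part of sex in these values was not tested. A second Cyp7b1 probe set gave the same picture, with 276, 68.5 and 1051 under TCDD and 261, 64.0 and 373 under DMSO in wild type cells. The TCDD change was -0.12 (-1.86 to 1.62, adjusted p = 1.0) in human AHR cells and 0.33 (-1.41 to 2.07, adjusted p = 0.975) in wild type cells, intervals wide enough to hold a rise or a fall of more than 1 on the log2 scale. Without wild type TCDD replicate 3 the wild type value was -0.62 (-2.16 to 0.93, adjusted p = 1.0), and without both replicate 2 arrays it was 0.62 (-0.42 to 1.65, adjusted p = 0.807), so its sign turned without TCDD replicate 3 and not without the pair.

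Cyp27a1, the mitochondrial sterol 27-hydroxylase, was the steadiest member. Its signal ran from 1150 to 1273 in human AHR cells under TCDD and from 1084 to 1166 in human AHR cells under DMSO. It ran from 986 to 1388 in wild type cells under TCDD and from 1015 to 1305 in wild type cells under DMSO. All groups overlapped. The log2 differences of TCDD minus DMSO were 0.08 (-0.22 to 0.39, adjusted p = 1.0) in human AHR cells and 0.09 (-0.21 to 0.40, adjusted p = 0.968) in wild type cells, and these intervals leave out a 1.5-fold change either way, since their bounds correspond to folds of 0.857 to 1.31 and 0.863 to 1.32. A second Cyp27a1 probe set was far dimmer, at 1.0 to 17.2. It gave 0.07 (-0.39 to 0.53) in human AHR cells and 0.29 (-0.18 to 0.75) in wild type cells, where a 1.5-fold rise is not left out. Cyp8b1, the sterol 12-alpha-hydroxylase, read 58.3, 43.9 and 68.7 under TCDD and 44.1, 54.8 and 53.9 under DMSO in human AHR cells. Its wild type readings were 66.4, 56.3 and 54.9 under TCDD and 61.3, 35.3 and 75.3 under DMSO, and the groups overlapped in both genotypes. Its TCDD values were 0.11 (-0.40 to 0.63, adjusted p = 1.0) in human AHR cells and 0.07 (-0.44 to 0.59, adjusted p = 0.98) in wild type cells.

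Slc10a1, the sodium-dependent bile acid uptake carrier also called NTCP, read 508, 413 and 240 in human AHR cells under TCDD and 437, 340 and 337 in human AHR cells under DMSO. The wild type readings were 310, 128 and 704 under TCDD and 310, 183 and 166 under DMSO. The human AHR DMSO arrays all lay above the wild type DMSO arrays, while the treatment groups of each genotype overlapped. Its TCDD change was 0.00 (-0.97 to 0.97, adjusted p = 1.0) in human AHR cells and 0.51 (-0.46 to 1.48, adjusted p = 0.966) in wild type cells. The wild type value rested on TCDD replicate 3, without which it was -0.07 (-0.86 to 0.73, adjusted p = 1.0). Under DMSO, human AHR cells differed from wild type cells by 0.76 (-0.21 to 1.73, adjusted p = 0.965), or 0.66 (-0.13 to 1.45, adjusted p = 0.999) without both replicate 2 arrays. A second Slc10a1 probe set gave 0.46 (-0.40 to 1.32, adjusted p = 0.983) for the same comparison.

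Abcb11, the bile salt export pump, read 90.8, 134 and 116 under TCDD and 95.9, 108 and 153 under DMSO in human AHR cells. The wild type arrays gave 115, 67.6 and 220 under TCDD and 107, 69.3 and 90.2 under DMSO. The replicate 2 arrays were again the lowest of the 12, wild type TCDD replicate 3 the highest, and the groups overlapped. The TCDD values were -0.05 (-0.73 to 0.64, adjusted p = 1.0) in human AHR cells and 0.40 (-0.28 to 1.09, adjusted p = 0.966) in wild type cells. Without wild type TCDD replicate 3 the wild type value was 0.01 (-0.57 to 0.59, adjusted p = 1.0).

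Abcb4, the phosphatidylcholine floppase of the bile canaliculus, showed the opposite pattern on replicate 2. It read 301, 276 and 609 in human AHR cells under TCDD and 296, 230 and 455 in human AHR cells under DMSO, against 300, 872 and 269 in wild type cells under TCDD and 253, 601 and 262 in wild type cells under DMSO. In wild type cells replicate 2 was high in both treatments, and in human AHR cells replicate 3 was high in both. The TCDD change was 0.23 (-0.74 to 1.19, adjusted p = 1.0) in human AHR cells and 0.26 (-0.70 to 1.23, adjusted p = 0.97) in wild type cells. In human AHR cells the arrays of one number paired by their values. There the TCDD array exceeded its DMSO partner in 3 of 3 pairs, by 0.02, 0.25 and 0.41. The paired fit gave the same 0.23 with an interval of -0.06 to 0.51 (limma, adjusted p = 1.0). That fit took same-numbered wild type arrays as pairs too, and its spread was estimated over both genotypes. Cyp27a1 also had the TCDD array higher in 3 of 3 human AHR pairs, by 0.04, 0.08 and 0.13, and Cyp7a1 had it lower in 3 of 3, by -0.02, -0.23 and -0.39. Over all genes 12.2% were higher and 14.0% lower in 3 of 3 of these pairs, against 2 and 1 of the 10 members.

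Abcc2, also called MRP2, read 634, 711 and 651 under TCDD and 736, 671 and 647 under DMSO in human AHR cells. It read 614, 795 and 755 under TCDD and 520, 840 and 509 under DMSO in wild type cells, and the groups overlapped in both. Its TCDD values were -0.04 (-0.42 to 0.34, adjusted p = 1.0) in human AHR cells and 0.24 (-0.14 to 0.62, adjusted p = 0.966) in wild type cells. Without both replicate 2 arrays the wild type value was 0.39 (0.08 to 0.71, adjusted p = 0.779). Abcc3, also called MRP3, read 771, 716 and 1143 under TCDD and 998, 686 and 1064 under DMSO in human AHR cells. For wild type cells the readings were 579, 1052 and 373 under TCDD and 643, 1134 and 709 under DMSO, so that replicate 2 was high in both treatments and the groups overlapped. TCDD gave -0.07 (-0.77 to 0.64, adjusted p = 1.0) in human AHR cells and -0.38 (-1.09 to 0.32, adjusted p = 0.966) in wild type cells. The Abcc3 value in wild type cells was -0.04 (-0.70 to 0.62, adjusted p = 1.0) without TCDD replicate 3.

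Nr0b2, the small heterodimer partner, was the second dim member and lay below the array median on 6 of the 12 arrays. It read 8.6, 23.8 and 30.8 under TCDD and 18.5, 21.9 and 26.9 under DMSO in human AHR cells. In wild type cells it read 17.4, 5.64 and 15.2 under TCDD and 24.6, 7.3 and 11.2 under DMSO, with replicate 2 lowest in both treatments. The treatment groups overlapped, and TCDD gave -0.10 (-0.71 to 0.51, adjusted p = 1.0) in human AHR cells and -0.06 (-0.68 to 0.55, adjusted p = 0.988) in wild type cells.

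**Figure D2:**
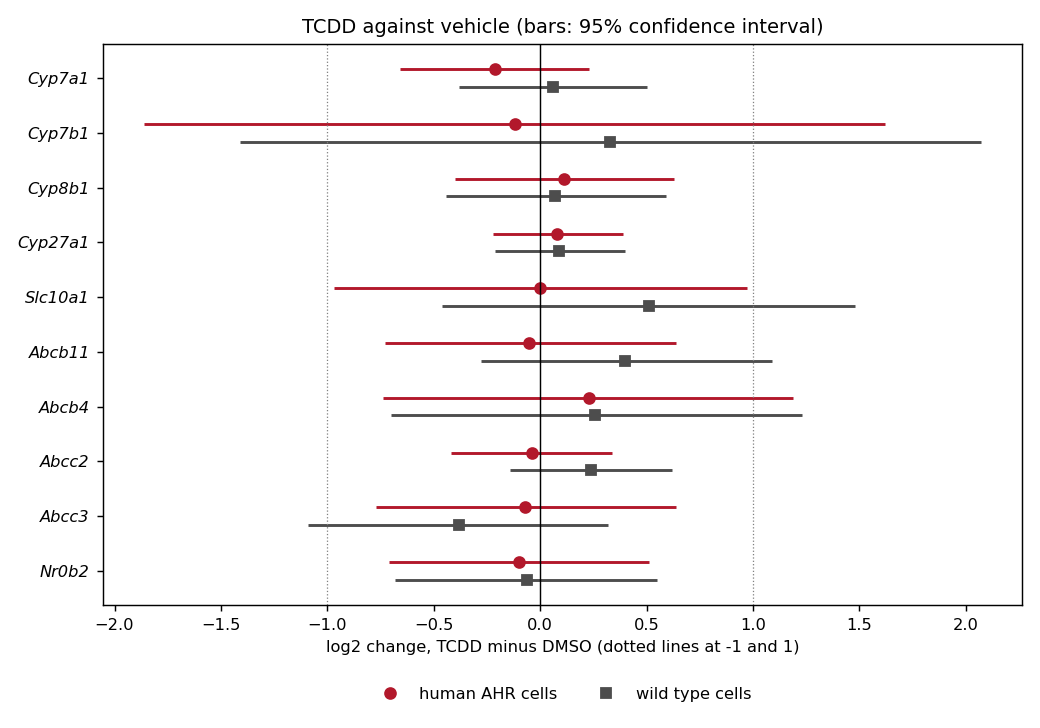
Log2 change of TCDD minus DMSO for the 10 genes in human AHR cells (circles) and wild type cells (squares), with 95% confidence intervals from limma and dotted lines at -1 and 1. Every interval includes 0, and the Cyp7b1 intervals are the widest, from -1.86 to 1.62 in human AHR cells and from -1.41 to 2.07 in wild type cells.

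Set together, 0 of the 10 genes passed an adjusted p of 0.05 for TCDD in human AHR cells by limma, where 0.022% of all genes did, and 0 reached an unadjusted p of 0.05, where 2.9% of all genes did. Of the 10, 4 had a higher and 6 a lower mean under TCDD, with a median log2 change of -0.04 against -0.01 over all genes. Cyp7a1 was the 1 gene with all TCDD arrays below all DMSO arrays, which 3.85% of all genes showed, and 0 had all TCDD arrays above, against 3.35%. In wild type cells 0 genes were called against 0.0055% of all genes, and 0 against 4.18% at an unadjusted p of 0.05. There 8 had a higher and 2 a lower mean under TCDD, with a median of 0.16 against 0.03 over all genes, where 55.7% of genes had a higher mean, and 0 had groups that did not overlap, against 6.19% of all genes higher and 2.81% lower. Without wild type TCDD replicate 3, 5 of the 10 were higher and 5 lower, with a median of 0.00. Without both replicate 2 arrays the wild type values furthest from 0 were 0.99 for Slc10a1 (0.13 to 1.85), 0.62 for Abcb11 (-0.04 to 1.28), 0.62 for Cyp7b1 and -0.52 for Abcc3 (-1.10 to 0.06). The others then were 0.39 for Abcc2, 0.14 for Cyp27a1, 0.13 for Cyp7a1, 0.13 for Abcb4, -0.04 for Nr0b2 and -0.14 for Cyp8b1, where the sign turned, and 0.779 was the smallest adjusted p of the 10. Of these, Slc10a1 and Abcc2 reached an unadjusted p of 0.05, 2 of 10 where 5.9% of all genes did. The test of whether the TCDD effect differed between human AHR and wild type cells called 0 of the 10, against 0.0% of all genes, and 0 reached an unadjusted p of 0.05, against 3.15%. The values of this difference furthest from 0 were -0.50 for Slc10a1 (-1.87 to 0.87), -0.45 for Cyp7b1 (-2.91 to 2.01) and -0.45 for Abcb11 (-1.42 to 0.52), each with an adjusted p of 0.999. Without wild type TCDD replicate 3 these differences were 0.07 for Slc10a1, 0.50 for Cyp7b1 and -0.06 for Abcb11, so that the sign turned for Slc10a1 and Cyp7b1. Without both replicate 2 arrays they were -0.99 for Slc10a1, -0.74 for Cyp7b1 and -0.66 for Abcb11, and Abcc2, at -0.43 (-0.84 to -0.03, adjusted p = 0.951), was the 1 gene of the 10 with an unadjusted p under 0.05, which 4.03% of all genes had. Averaged over both genotypes, TCDD again called 0 of the 10 (0.022% of all genes), with 0 at an unadjusted p of 0.05 (3.56%), 7 higher, 3 lower and a median of 0.10 against 0.01 over all genes. Without wild type TCDD replicate 3, 4 were higher and 6 lower, with a median of -0.03. Without both replicate 2 arrays this average was 0.50 for Slc10a1, 0.25 for Cyp7b1, 0.18 for Abcc2 and -0.30 for Abcc3. A test that was not passed does not show that a gene stayed the same. In human AHR cells 8 of the 10 intervals lay within -1 and 1 on the log2 scale, and in wild type cells 5 did. In the average over genotypes 9 did, Cyp7b1 being the exception. For the dim genes Cyp7a1 and Nr0b2 these bounds depend on the offset. With an offset of 1 the intervals in human AHR cells were -1.24 to 0.47 for Cyp7a1 and -1.52 to 1.04 for Nr0b2. Nr0b2 then had -1.41 to 1.15 in wild type cells and -1.09 to 0.72 in the average. Cyp7a1 stayed within -1 and 1 there, at -0.73 to 0.98 and -0.74 to 0.47.

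The genotypes were compared in the same way, human AHR against wild type. Under DMSO 0 of the 10 genes were called (0.011% of all genes) and 0 reached an unadjusted p of 0.05 (4.26%), with 6 higher in human AHR cells, 4 lower and a median of 0.17 against 0.03 over all genes. Without both wild type replicate 2 arrays 1 of the 10 reached it (4.33% of all genes), Abcc2, at 0.40 (0.11 to 0.69, adjusted p = 0.999) against 0.17 with all arrays. Slc10a1 alone had its human AHR arrays all above the wild type arrays, as did 6.28% of all genes, and 0 had them all below, against 4.44%. Under TCDD 0 were called (0.0055%) and 0 reached an unadjusted p of 0.05 (4.13%), with 4 higher, 6 lower and a median of -0.04 against -0.01, and Cyp7a1 alone had its human AHR arrays all below the wild type arrays, as did 4.88% of all genes, while 0 had them all above, against 3.23%. Averaged over treatments, with 6 arrays against 6, 0 were called (0.033%) and 0 reached an unadjusted p of 0.05 (5.34%), with 6 higher, 4 lower and a median of 0.08 against 0.01. The average differences nearest the threshold were those of Cyp7a1, at -0.27 (-0.58 to 0.05, adjusted p = 0.949), and Nr0b2, at 0.36 (-0.07 to 0.79, adjusted p = 0.949), both dim genes. Without both wild type replicate 2 arrays these averages were -0.22 and 0.18, and the Cyp7a1 difference under TCDD was -0.39 (-0.92 to 0.15).

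Several genotype values depended on the Xist-high pair. Averaged over treatments, Cyp7b1 differed by 0.84 (-0.39 to 2.07, adjusted p = 0.954) with all arrays and by -0.07 (-0.74 to 0.60, adjusted p = 0.999) without both wild type replicate 2 arrays. Abcb4 differed by -0.14 (-0.82 to 0.55) with all arrays and by 0.32 (-0.16 to 0.80) without the pair. For Abcb11 these averages were 0.13 (-0.36 to 0.62) and -0.12 (-0.55 to 0.31). Slc10a1 differed by 0.51 (-0.18 to 1.19, adjusted p = 0.951) with all arrays and by 0.17 (-0.39 to 0.72, adjusted p = 0.997) without the pair. For Abcc3 the order was the reverse, with 0.32 (-0.18 to 0.82, adjusted p = 0.962) on all arrays and 0.63 (0.26 to 1.01, adjusted p = 0.506) without the pair. Among the 10 arrays with a male pattern, Abcc3 ran from 686 to 1143 in human AHR cells and from 373 to 709 in wild type cells, the unadjusted p of this value was 0.00314, and it did not pass the adjustment over all genes. Under TCDD the Abcc3 value without the pair was 0.86 (0.33 to 1.39, adjusted p = 0.611). The Slc10a1 value under TCDD was 0.25 (-0.72 to 1.22) with all arrays and -0.33 (-1.12 to 0.46) without the pair. For Cyp7b1 these values under TCDD were 0.61 (-1.13 to 2.35) and -0.44 (-1.38 to 0.51), and for Abcb4 -0.16 (-1.12 to 0.81) and 0.37 (-0.32 to 1.05). Abcc3 was the 1 gene of the 10 that reached an unadjusted p of 0.05 without the pair, in the average (5.67% of all genes) and under TCDD (5.81%). With the pair kept and wild type TCDD replicate 3, the lowest Abcc3 array, left out, the average was 0.15 (-0.30 to 0.59, adjusted p = 0.866), against 0.32 on all arrays. The value under TCDD was then 0.13 (-0.53 to 0.79, adjusted p = 0.969), against 0.48. No fit left out both the pair and that array. Leaving out that array alone, Slc10a1 averaged 0.79 (0.26 to 1.33, adjusted p = 0.436) and Cyp7b1 1.31 (0.27 to 2.34, adjusted p = 0.526). Both then reached an unadjusted p of 0.05 in the average (8.43% of all genes) and under TCDD (5.3%), and Slc10a1 did so under DMSO (5.54%).

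Markers of other liver cells are given beside these genotype values. Without Cd68, the summed signal of the other 5 Kupffer cell or macrophage markers was 91.3 to 536 under TCDD and 68.8 to 553 under DMSO in human AHR cells, and 67.2 to 88.9 under TCDD and 47.1 to 107 under DMSO in wild type cells. One of them, the scavenger receptor Marco, read 4.5 to 122 under TCDD and 3.1 to 102 under DMSO in human AHR cells, and 1.02 to 2.28 under TCDD and 0.9 to 2.8 under DMSO in wild type cells. Under TCDD Clec4f (23.3 to 53.6 against 15.2 to 19.4) and Vsig4 (12.5 to 57.1 against 2.07 to 11.5) separated too. Csf1r (31.6 to 187 against 22.9 to 37.2) and Adgre1 (19.4 to 116 against 14.2 to 38.2) overlapped. In human AHR cells replicate 1 was the lowest for each of these 5 markers in both treatments. The sum of 6 stellate cell or fibroblast markers was 152 to 191 under TCDD and 115 to 170 under DMSO in human AHR cells, and 80.7 to 138 under TCDD and 73.1 to 127 under DMSO in wild type cells, with Lrat, Col1a1 and Col3a1 below the array median throughout. For both sums the human AHR arrays all lay above the wild type arrays under TCDD and overlapped with them under DMSO. The gap in the Kupffer cell sum was small, 91.3 against 88.9. In the stellate cell sum Reln alone separated under TCDD, with 127, 81.3 and 129 in human AHR cells and 38.3, 65.5 and 49.7 in wild type cells. Des (7.5 to 24.8 against 7.08 to 39.1) and Acta2 (4.0 to 34.8 against 9.24 to 23.3) overlapped. The sum of 5 endothelial markers overlapped under TCDD, at 114 to 175 in human AHR cells and 117 to 142 in wild type cells. Under DMSO it was 125 to 216 in human AHR cells and 115 to 119 in wild type cells, while no single endothelial marker separated there. The part of other cell types in the genotype values was not tested.

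**Figure D3:**
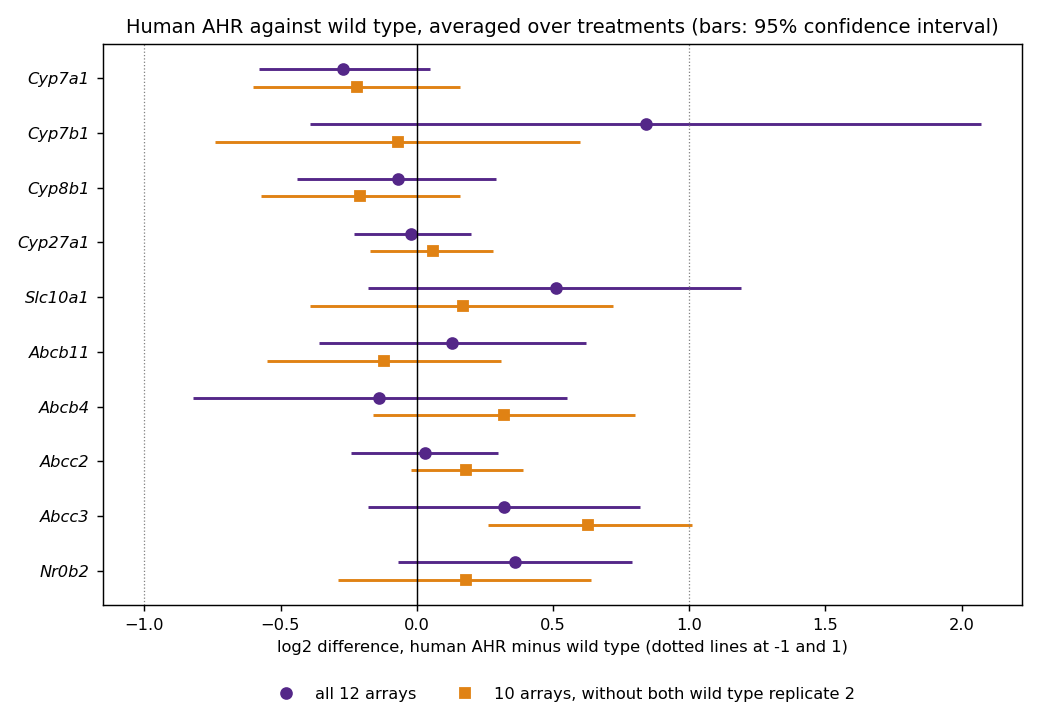
Log2 difference of human AHR minus wild type cells, averaged over treatments, for the 10 genes with all 12 arrays (circles) and with the 10 arrays left after removing both wild type replicate 2 arrays (squares), with 95% confidence intervals. Cyp7b1 lies at 0.84 with all arrays and at -0.07 without the pair, and Abcc3 lies at 0.32 and 0.63.

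The Xist-high pair stood outside the range of the other 4 wild type arrays for 6 of the 10 genes, against 28.0% of all genes. Abcb4, Abcc3 and Abcc2 were above that range on both arrays, by mean log2 differences of 1.37, 0.94 and 0.45, and Cyp7b1, Abcb11 and Nr0b2 were below it, by -2.72, -0.75 and -0.54. Of the 5 transporters, 3 were thus above the range on this pair, 1 was below it and Slc10a1 was below it on the TCDD array alone. Against all other 10 arrays, of both genotypes, 4 of the 10 genes lay outside, namely Abcc2 above and Cyp7b1, Abcb11 and Nr0b2 below, against 14.7% of all genes. The mean log2 difference of Slc10a1 was -1.02. These are descriptions of a pair of arrays with no test, and the part of sex in them was not tested.

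**Figure D4:**
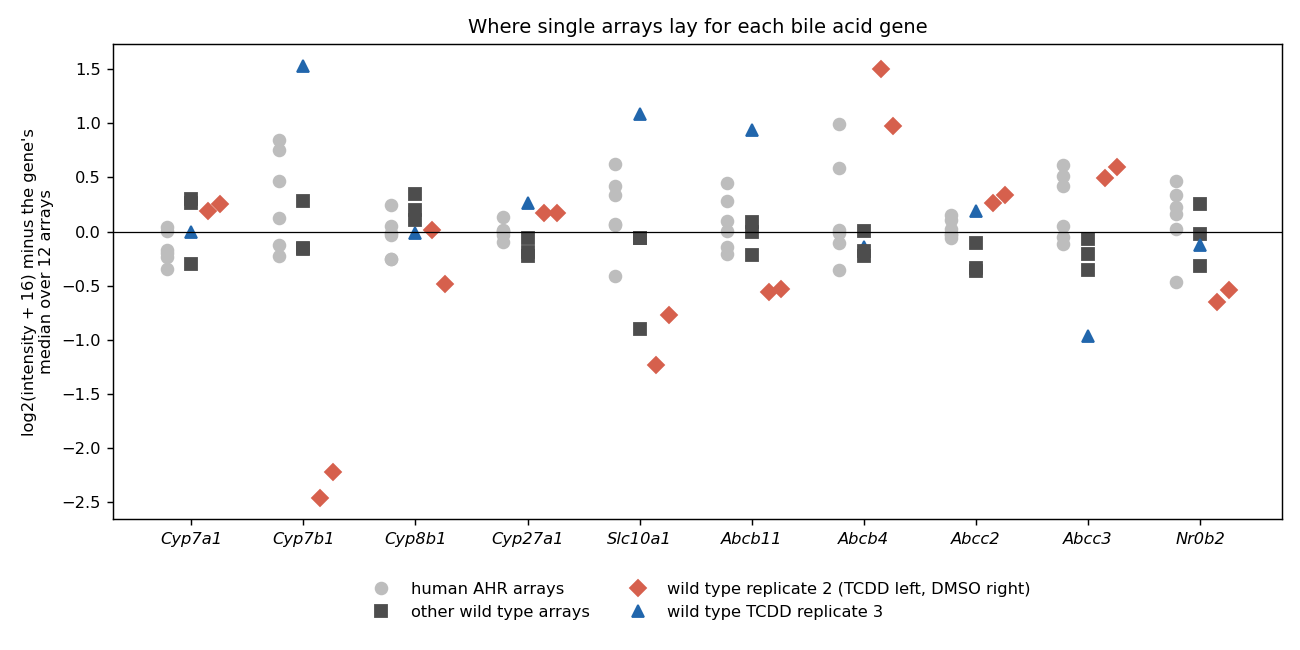
Log2 of intensity plus 16 on each array minus the gene's median over 12 arrays, with human AHR arrays as pale circles, wild type replicate 2 as diamonds, wild type TCDD replicate 3 as triangles and the other wild type arrays as squares. Wild type TCDD replicate 3 is the highest array for Cyp7b1, Cyp27a1, Slc10a1 and Abcb11 and the lowest for Abcc3, and the diamonds lie lowest for Cyp7b1, Abcb11 and Nr0b2.

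Wild type TCDD replicate 3 was the other array on which these genes stood out. It was the highest of the 12 arrays for 4 of the 10 genes, Cyp7b1, Cyp27a1, Slc10a1 and Abcb11, and the lowest for Abcc3, where it was the highest for 17.3% and the lowest for 14.9% of all genes. On the same array Tat, a hepatocyte enzyme induced by glucocorticoids, read 1072 against 216 to 486 elsewhere. The summed hepatocyte markers were at their highest, at 49771, close to the 49362 reached in human AHR cells under DMSO. Alb and Ttr were highest on this array too, while Apoa1 (15823, against up to 17215) and Cps1 (690, against up to 752) were not. Cd68 was also at its highest there, at 4041, while the other 5 Kupffer cell or macrophage markers summed to 85.3. Their part in the values of these genes was not tested. Wild type TCDD replicate 2 was the lowest array for Cyp7b1, Slc10a1, Abcb11 and Nr0b2, against 9.95% of all genes, and the highest for Abcb4, against 11.5%. The spread within treatment groups was larger in wild type than in human AHR cells for 10 of the 10 genes, against 57.4% of all genes. Without wild type replicate 2 it was larger for 6 of the 10, against 48.9% of all genes, and no longer for Cyp8b1, Abcb4, Abcc3 and Nr0b2. The median within-group SD on the log2 scale was 0.31 in human AHR cells and 0.47 in wild type cells, against 0.24 and 0.26 over all genes, and it was 0.30 in wild type cells without replicate 2. For Abcb4 the SD was 0.54 in human AHR cells and 0.80 in wild type cells, or 0.08 in wild type cells without replicate 2. Cyp27a1, at 0.07 and 0.22, and Cyp7a1, at 0.10 and 0.25, did not become less variable in wild type cells without that replicate, at 0.25 and 0.33.

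Beyond the 10, a list of 53 other bile acid genes was followed, of which 50 were measured, 16 synthesis enzymes, 14 transporters and 20 regulators. limma called 0 of them in any of the 7 comparisons, and 0 to 3 reached an unadjusted p of 0.05. With TCDD, 26 had a higher and 24 a lower mean in human AHR cells, and 30 a higher and 20 a lower mean in wild type cells. At an unadjusted p of 0.05 there were 0 of 50 in human AHR cells and 2 of 50 in wild type cells, where 2.9% and 4.18% of all genes reached it, so the shares are near the background. These 2, named for their small p, were Slc51a, the basolateral exporter subunit OST-alpha, at 0.79 (0.26 to 1.33, adjusted p = 0.966), and Nr0b1, a relative of Nr0b2, at 0.39 (0.08 to 0.71, adjusted p = 0.966). Slc51a read 22.8, 11.9 and 36.2 under TCDD and 5.6, 11.3 and 2.4 under DMSO in wild type cells, and 12.7, 6.4 and 3.6 under TCDD and 13.2, 15.1 and 8.1 under DMSO in human AHR cells. The treatment groups did not overlap in wild type cells, where 6.19% of all genes had all TCDD arrays above. Array medians ran from 16.5 to 23.5, and Slc51a lay below them on 10 of the 12 arrays, including all wild type DMSO and all human AHR arrays. The difference of its TCDD effect between human AHR and wild type cells was -1.06 (-1.82 to -0.30, adjusted p = 0.999). Nr0b1 was below 10 on every array. In human AHR cells the smallest p values were those of Fgf15, the ileal hormone that represses Cyp7a1, at -0.44 (-0.89 to 0.02), and of Atp8b1, an aminophospholipid flippase of the canaliculus, at 0.64 (-0.05 to 1.32), both with an adjusted p of 1.0. Fgf15 lay below the array median on all 12 arrays.

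Between genotypes under DMSO, 3 of the 50 reached an unadjusted p of 0.05, against 4.26% of all genes, and 0 passed the adjustment. These 3 are named for their small p. Baat, which joins bile acids to taurine or glycine, read 16.5, 9.9 and 24.6 in human AHR cells and 28.7, 111 and 45.8 in wild type cells, a difference of -1.12 (-2.04 to -0.20, adjusted p = 0.965). Nr1h4, which encodes the bile acid receptor FXR, read 67.1, 53.2 and 47.0 in human AHR cells and 69.9, 161 and 99.6 in wild type cells, a difference of -0.76 (-1.43 to -0.09, adjusted p = 0.965). Vdr, the vitamin D receptor, read 13.7, 18.9 and 29.2 in human AHR cells and 8.7, 4.6 and 6.5 in wild type cells, a difference of 0.68 (0.12 to 1.23, adjusted p = 0.965). Vdr lay below the array median on 11 of the 12 arrays, including all 3 wild type DMSO arrays and 2 of the 3 human AHR DMSO arrays. The groups did not overlap for any of these 3, where 6.28% of all genes had all human AHR arrays above and 4.44% had them all below, and for Baat and Nr1h4 the highest wild type array was the Xist-high one. Without that pair the differences were -0.70 for Baat, -0.48 for Nr1h4 and 0.61 for Vdr, each with an adjusted p of 0.999.

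**Figure D5:**
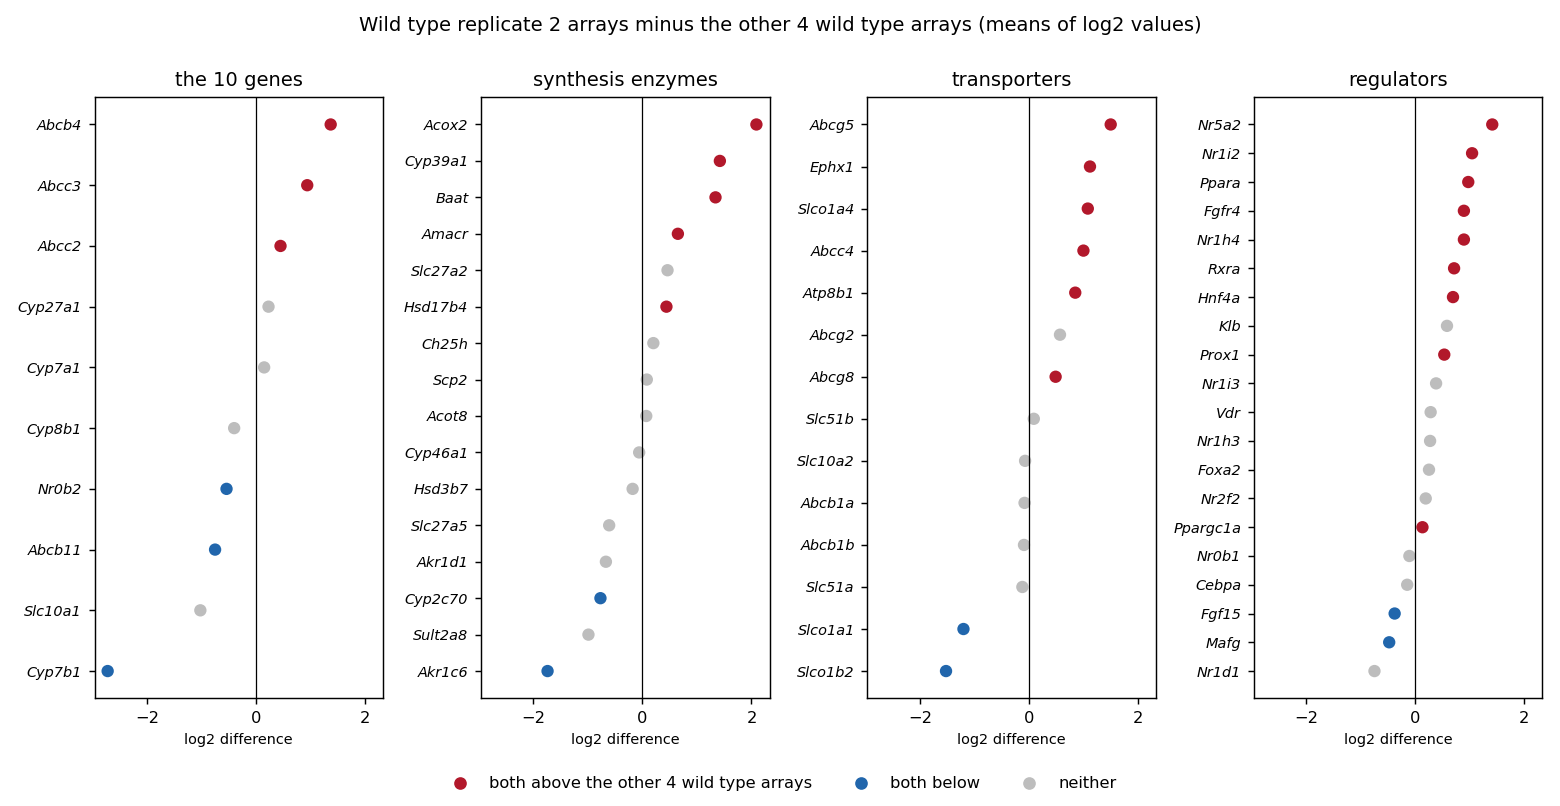
Mean log2 signal of the 2 wild type replicate 2 arrays minus that of the other 4 wild type arrays, for the 10 genes and for the other bile acid genes by role, coloured by whether both arrays lay above, both below or neither outside the other 4. Of the 50 other genes, 20 lie above and 6 below, with Acox2 at 2.09 and Akr1c6 at -1.74 at the ends.

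On the wild type replicate 2 arrays, 26 of the 50 other genes lay outside the other 4 wild type arrays, 20 above and 6 below, where 14.5% of all genes lay above and 13.6% below. Those above included Acox2, the peroxisomal oxidase that shortens the bile acid side chain (2.09), the sterol exporter subunit Abcg5 (1.5), the oxysterol hydroxylase Cyp39a1 (1.42), Baat (1.34) and the receptors Nr5a2 (1.41), Nr1i2 (1.04) and Nr1h4 (0.89). Those below included the organic anion uptake carriers Slco1b2 (-1.52) and Slco1a1 (-1.20), of which Slco1a1 is also known to be more abundant in male mouse liver, the reductase Akr1c6 (-1.74) and Cyp2c70 (-0.77), which makes the muricholic acids of mice. Slco1a1 read 49.5 and 67.9 on this pair and 77.1 to 242 on the other wild type arrays. The part of sex in these differences was not tested.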

How the data were processed

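The members and the wider list were chosen with earlier results of these data known. The deposited intensity of each probe set was never negative. Per the design text, GCOS was used on the scans, PLIER-MM normalised them, and SAM, not run here, made the comparisons. The submitters' processing notes name Affymetrix Expression Console 1.1. Each array was rescaled to a mean of 150 after trimming 2% at each end, and log2 of intensity plus 16 was taken. Of 45101 probe sets, 34945 named 1 gene symbol, 932 several and 9160 none, and 64 were controls. Symbols came from the platform annotation, and a gene was represented by its brightest probe set over all arrays.

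limma 3.58.1 in R 4.3.3 fitted 4 group means over 12 arrays with 8 residual degrees of freedom, and eBayes used an intensity trend. The 7 comparisons were TCDD against DMSO in human AHR and in wild type cells, how far these changes differed, the genotypes under each treatment, and both averages. The averages are not independent of the comparisons they pool. Tests were two-sided, adjusted with Benjamini-Hochberg over 18193 genes, with a threshold of 0.05 and 95% intervals. The number of arrays limits the precision. The fit was tested on simulated data. All 10 members were tested and counted in every comparison, and values of single members are given for only part of them. Of the wider list, every called gene and up to 4 genes with the smallest p were to be named.

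In human AHR cells, deviations from the group means of same-numbered TCDD and DMSO arrays correlated across genes (r = 0.239, 0.265 and 0.191, against -0.189 to -0.0449 for other numbers), so these arrays were treated as paired in an alternative fit. That fit took same-numbered wild type arrays as pairs too. In human AHR cells the pairing comes from the values. The design text gives 1 mouse per array, and the labels do not settle whether same-numbered arrays share an animal or a culture day. Promoter windows were those of RefSeq (GRCm38.p6), matched by symbol for 7 of the 10 genes. Plots used Python 3.11.15 with matplotlib 3.10.9.

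Alternatives covered the offset, array scaling, a filter on dim genes, the probe sets of a gene, the variance model, the arrays in the fit and the replicate block. A term for the Xist-high arrays was added after seeing the data. The labels give no scan or culture dates, so genotype and culture day cannot be told apart.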

Additional observations from a re-analysis of the deposited data

How the results depend on the processing

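In each of the 7 comparisons, 0 of the 10 genes were called under any of the 26 or 27 alternatives tried. The smallest adjusted p of any member over these was 0.436, for Slc10a1 between genotypes averaged over treatments without wild type TCDD replicate 3 (0.79, 0.26 to 1.33). Of 1783 recomputed member values, 1773 moved by less than the within-group SD and 10 by more, and 138 changed sign, 90 of them among 840 values with 1 array left out. The count of all genes called was 4 for TCDD in human AHR cells (0 to 6 over the alternatives), 1 for TCDD in wild type cells (0 to 2) and 0 for their difference (0 to 1, with 573 genes at an unadjusted p of 0.05). Between genotypes it was 2 under DMSO (1 to 4) and 1 under TCDD (1 to 5). It was 4 for TCDD averaged over genotypes (1 to 6) and 6 for the genotypes averaged over treatments (4 to 11). Nr0b2 was dropped by the filter on the dimmest 40% of genes. With a replicate block, that is same-numbered arrays of a genotype taken as pairs, the standard error of the TCDD effect averaged over genotypes fell for Abcb4 to 0.09, against 0.32 without the block. Its value was then 0.25 (0.04 to 0.45, limma, adjusted p = 0.828), which takes the wild type arrays as pairs too. In wild type cells same-numbered arrays correlated at r = 0.25, 0.508 and 0.0485 for replicates 1, 2 and 3, against -0.46 to 0.283 for other numbers. Replicate 2 thus paired by its values, replicate 3 did not, and the numbers did not pair all wild type arrays. In these cells the block gave -0.38 for Abcc3 (limma, adjusted p = 0.654). The block changed no call of a member. With a term for the Xist-high arrays, added after seeing the data, the Abcc3 difference between genotypes averaged over treatments was 0.63 (adjusted p = 0.441). Signals near the array median limit what can be read of Cyp7a1 and Nr0b2. Averaged over genotypes, the second Cyp7a1 probe set gave 0.43 with TCDD (limma, adjusted p = 0.999) and the main one -0.08.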
